A study of Mus musculus with 6 samples.

Results

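T-box and homeobox genes outside the Hox clusters were followed in bone marrow of young mice with and without Cbx2. The group was set by gene name, with earlier results of these data known. Family prefixes were those of Tbx1, Lhx1, Six2, Irx1, Nkx1-1, Pitx1, Otx1, Prrx1, Barx1 and Alx1. The group holds every row of the deposited table whose symbol begins with such a prefix and a digit. It has 64 of the 22838 rows, of which 59 are genes of transcription factors and 5 are RNAs from the strand opposite a factor gene (Lhx1os, Nkx2-2os, Otx2os1, Six3os1 and Tbx3os2). RNA came from tibial and femoral marrow of 3 wild-type and 3 Cbx2-/- mice, all 3 weeks old and of mixed 129/C57BL/6 strain, per the labels. Average weight was 4.0 g for Cbx2-/- mice against 12.3 g for controls. The labels do not describe the Cbx2 allele. No agent was given to either genotype, as far as the labels say. The values are FPKM, fragments scaled to transcript length and to the library's mapped fragments, so levels can be compared between genes, and a gene's value also moves with the share of reads that other genes take.

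T-box and homeobox proteins bind DNA through the domain that gives each family its name, and they set position and cell identity while organs form. Outside the tissues where they act, many of these genes are held silent by Polycomb complexes, and Cbx2 is a subunit of Polycomb repressive complex 1. Some keep working in limb mesenchyme and its descendants: Prrx1 and Tbx15 in limb skeletal precursors, and Pitx1 and Tbx4 in hindlimb identity. Six4 acts in muscle precursors.

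With a mean of 0.1 FPKM as the limit, most of the group was silent or nearly so in both genotypes. No row passed the test as higher without Cbx2 in either fit described below, which took in 10 and 26 of the rows. In the 6 libraries together, 20 rows were listed at 0 throughout and 16 were at trace level, with a mean under 0.1 FPKM in both genotypes. A further 18 were low, with a mean of at least 0.1 FPKM in a genotype but under the filter for testing, and 10 had at least 1 FPKM in at least 3 libraries. Thus 31.2% of the group was listed at 0 in all libraries, against 20.7% of all rows of the table, and 43.8% was detectable (low or above the filter), against 67.9%. Rows above 0 numbered 31, 30 and 33 per wild-type library and 29, 35 and 34 per Cbx2-/- library, so the ranges of the genotypes overlapped.

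**Figure D1:**
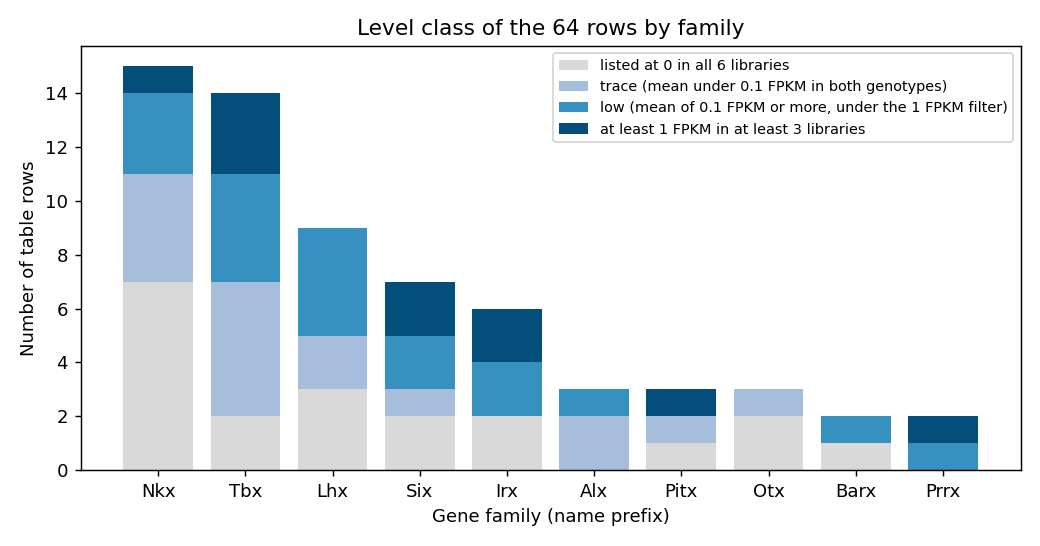
Number of table rows (vertical axis) in each of 4 level classes for the 10 name families (horizontal axis). All 3 Otx rows and 11 of the 15 Nkx rows were at trace level or listed at 0, while both Prrx rows and 4 of the 6 Irx rows were detectable.

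Silent rows came from most of the families. Those listed at 0 in all libraries included Barx1, Irx1, Irx4, Lhx4, Lhx5, Lhx8, Nkx1-2, Nkx2-2, Nkx2-4, Nkx2-6, Nkx6-3, Otx2, Pitx3, Six6, Tbx22 and the opposite-strand RNAs Nkx2-2os, Otx2os1, Six3os1 and Tbx3os2. These include genes of forebrain, spinal cord, eye, gut and heart development. Of 25 rows at 0 in every wild-type library, 5 had a value in a Cbx2-/- library, a share of 20.0% against 14.2% over all genes at 0 in every wild-type library. None of the 5 had a value in all 3 Cbx2-/- libraries, where the share over all genes was 1.47%. They included Lhx1os (0.364 FPKM in replicate 2), Nkx1-1 (0.158 in replicate 3), Nkx2-5 (0.118 in replicate 1) and Tbx10 (0.0635 in replicate 3). In the other direction, 3 of 23 rows at 0 in every Cbx2-/- library had a wild-type value (13%, against 10% over all such genes), Lhx3 and Tbx5 among them. None of the 3 had a value in all 3 wild-type libraries, where the share over all genes was 0.799%.

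Most trace values lay near whole steps. Values of the 11 trace rows seen in more than 1 library were adjusted for the libraries' relative depth and divided by each row's smallest value. Of 24 others, 18 (75.0%) lay within 0.15 of a whole number, and the largest was 5.7. The relative depths came from the commonest ratio of low values in these same libraries, so this agreement was partly built in. Tbx20, at 5.5 and 5.7 in replicate 3 of each genotype, was not near a whole number there. If the smallest value stands for 1 read, which was not tested, each of these 11 rows rested on at most about 6 reads in a library. Trace rows seen in only 1 library give no such ratio. The trace rows that reached 0.1 FPKM in some library included Nkx2-9 (highest value 0.273 FPKM), Tbx1 (0.209), Nkx1-1 (0.158), Tbx19 (0.122), Nkx2-5 (0.118) and Nkx6-1 (0.101). Alx1, Lhx3, Lhx9, Otx1, Six3, Tbx5, Tbx10 and Tbx20 stayed under it.

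The median count of CpG dinucleotides before the start of these genes was above that of all genes, in detected and silent classes alike. Not every gene was CpG-rich. CpG-rich promoters are a known feature of Polycomb targets, which is why 4 promoters are shown, with many CpG or few. RefSeq starts (GRCm38.p6) were found for 44 of the 64 rows, not including Tbx2, Irx5, Pitx1, Tbx15, Alx4 or Barx2. In the 250 bases before the start, the median number of CpG was 14.0 over these 44 genes and 6.0 over all 27025 genes of the RefSeq table, which also holds noncoding genes. It was 15 for 14 rows listed at 0, 13 for 11 trace rows, 17.5 for 14 low rows and 13 for 5 rows above the filter, so the classes did not separate by it. RefSeq and GENCODE place some starts differently, and for 26 of the 44 genes a window reached into the gene as GENCODE vM21 draws it, for Irx3 over its whole length. The sequences below hold only the bases before the GENCODE gene, 5′ to 3′ on the strand of the gene, with each CpG in capitals. Prrx1 (chr1:163313711-163313900, minus strand, 3 CpG in 190 bases) and Tbx6 (chr7:126781233-126781482, plus strand, 6 CpG in 250 bases) are genes above the filter. Lhx1 (chr11:84525536-84525784, minus strand, 26 CpG in 249 bases) is low, and Barx1 (chr13:48662786-48662997, plus strand, 31 CpG in 212 bases) is listed at 0.
Prrx1: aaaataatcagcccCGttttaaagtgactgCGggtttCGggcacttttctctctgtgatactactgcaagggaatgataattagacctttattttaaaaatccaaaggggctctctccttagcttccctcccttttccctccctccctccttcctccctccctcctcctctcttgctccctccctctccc
Tbx6: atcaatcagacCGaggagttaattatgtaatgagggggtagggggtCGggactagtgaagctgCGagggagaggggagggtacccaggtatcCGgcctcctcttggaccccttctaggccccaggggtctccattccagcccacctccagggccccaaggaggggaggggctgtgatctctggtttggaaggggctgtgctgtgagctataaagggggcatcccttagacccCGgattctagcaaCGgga
Lhx1: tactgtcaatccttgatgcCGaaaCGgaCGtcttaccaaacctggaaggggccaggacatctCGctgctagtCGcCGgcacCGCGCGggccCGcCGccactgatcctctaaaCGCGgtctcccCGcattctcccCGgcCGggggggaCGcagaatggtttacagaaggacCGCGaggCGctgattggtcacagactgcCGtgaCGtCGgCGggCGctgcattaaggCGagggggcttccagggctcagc
Barx1: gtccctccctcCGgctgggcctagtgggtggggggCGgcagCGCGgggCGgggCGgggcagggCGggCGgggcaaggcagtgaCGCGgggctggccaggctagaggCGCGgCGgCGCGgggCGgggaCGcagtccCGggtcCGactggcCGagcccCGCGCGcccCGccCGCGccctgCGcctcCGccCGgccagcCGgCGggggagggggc
Prrx1 and Tbx6, whose 250-base windows held more CpG than those of 37.6% and 49.1% of all genes, had values in every library. Barx1, whose 250-base window held more CpG than those of 98.9% of all genes, had none. Other genes went the other way. Lhx1 and Nkx6-2, each with more CpG than 91.4% of all genes, had values in 5 and 6 libraries. Tbx22 and Lhx8, with more CpG than only 18.6% and 37.6% of all genes, had none. The palindrome TAATTA, which holds the core that many homeodomains bind, was in 6 of the group's 55 windows (10.9%) and in 4.84% of all 32851 windows. It was found before Prrx1, Tbx6, Tbx19, Nkx2-2os and Otx2. A gene with several starts, such as Otx2 with 4 windows, is counted once per window. The T-box core AGGTGT, on either strand, was in 1 window (1.82%, before Tbx1) against 11.8% of all windows, and TATAAA, on either strand, in 4 (7.27%) against 12.4%. Matches of different motifs may share bases, and a match describes letters only.

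Among the 10 genes above the filter, Tbx2 fell and none of the others passed the test. Genotypes were compared with limma on log2(FPKM + 1) across 12006 genes, with Benjamini-Hochberg adjustment and a threshold of 0.05. The share of all tested genes called was 8.31% for lower and 8.80% for higher genes, so 1 of 10 lower and 0 of 10 higher is close to what the whole table gives. At an unadjusted p under 0.05, limma gave 0 of the 10 higher and 4 lower, against 17.4% and 15.1% of all tested genes. Separate groups were seen for 3 genes, all lower (Tbx2, Prrx1 and Pitx1), where 18.2% of all tested genes had such lower values and 21.4% higher ones. In bulk marrow, fewer cells of a type and less RNA per cell cannot be told apart.

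**Figure D2:**
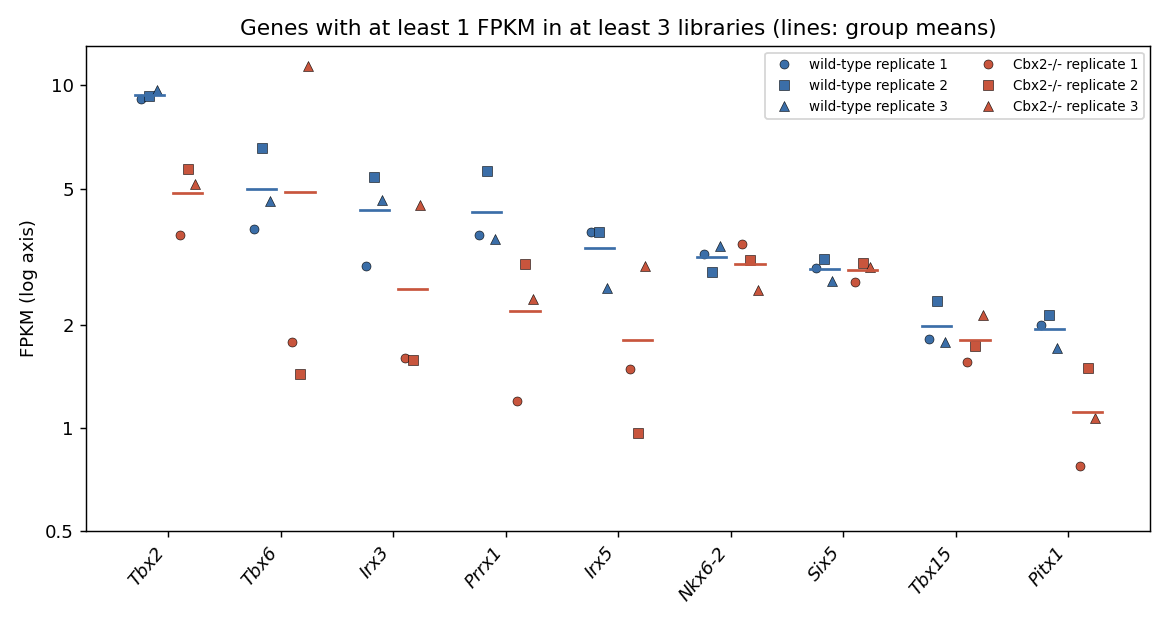
FPKM on a log axis for 9 of the 10 genes above the filter, ordered by wild-type mean, with a point per library and a line at each group mean. Tbx2, Prrx1 and Pitx1 show groups that do not overlap, and Tbx6 in Cbx2-/- replicate 3 (11.4 FPKM) lies above all other points of the plot.

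Tbx2 (chromosome 11, 85832551 to 85841948, plus strand) encodes a T-box repressor of cell cycle inhibitor genes and had the highest wild-type level of the group. Its FPKM was 9.10, 9.32 and 9.67 in wild-type and 3.66, 5.71 and 5.14 in Cbx2-/- libraries. All Cbx2-/- values were below all wild-type values. The means were 9.36 ± 0.287 and 4.84 ± 1.05 FPKM (SD, n = 3 each), 1.94-fold lower without Cbx2. The difference was -0.85 ± 0.16 (log2, SE; limma adjusted p = 0.0114), and the exact two-sided permutation p was 0.1, which is the lowest value possible with 3 libraries a group. The adjusted p rose to 0.0505, 0.0527 and 0.0547 without wild-type replicate 1, 2 or 3, with differences of -0.86, -0.85 and -0.82, in fits that called 3.96%, 3.98% and 4.51% of all genes lower.

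Its neighbour Tbx4, 44 kb away, is a hindlimb gene of low level. Tbx4 was at 0.0587, 0.164 and 0.165 FPKM in wild-type and 0.0997, 0.293 and 0.260 FPKM in Cbx2-/- libraries, with overlapping groups. Its forelimb counterpart Tbx5 was at 0.0185, 0 and 0.0468 FPKM in wild-type libraries and listed at 0 in all Cbx2-/- libraries. Tbx3, a limb and organ repressor closely related to Tbx2 that lies 148 kb from Tbx5, was at 0.120 ± 0.0264 and 0.0819 ± 0.0392 FPKM (SD, n = 3 each).

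Limb mesenchyme genes Prrx1 and Pitx1 were lower in each Cbx2-/- library without passing the test. Prrx1 (chromosome 1, 163245119 to 163313710, minus strand), the paired-related homeobox gene that marks limb bud mesenchyme, was at 3.67, 5.61 and 3.55 FPKM in wild-type and 1.20, 3.02 and 2.38 FPKM in Cbx2-/- libraries. The highest Cbx2-/- value lay under the lowest wild-type value, and the difference was -0.75 ± 0.25 (log2, SE; limma adjusted p = 0.0808, 95% interval -1.32 to -0.17 without adjustment). Pitx1, which specifies hindlimb, was at 2.0, 2.14 and 1.71 FPKM in wild-type and 0.775, 1.5 and 1.07 FPKM in Cbx2-/- libraries (limma adjusted p = 0.0807). Without Cbx2-/- replicate 2, both passed, at -0.93 (adjusted p = 0.0429) for Prrx1 and -0.62 (adjusted p = 0.0457) for Pitx1, in a fit that called 9.0% of all genes lower. In the rest of the 6 fits that leave out a library, neither passed. Without Cbx2-/- replicate 1, the differences were -0.50 for Prrx1 and -0.37 for Pitx1 (limma adjusted p = 0.194 and 0.226). Prrx2, the paralog of Prrx1, varied within the genotypes, at 1.05, 0.692 and 0 FPKM in wild-type and 0.390, 0.889 and 0.475 FPKM in Cbx2-/- libraries.

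Transcripts of bone-forming and fibrous cells moved in the same direction as these genes. Of 12 osteoblast markers, all tested, 7 fell, 0 rose and 5 did not pass. Their summed level was 9575.5 to 15982.8 FPKM in wild-type and 1045.9 to 1870.5 FPKM in Cbx2-/- libraries. Col1a1 alone gave 4783.9 to 8232.8 and 489 to 740 FPKM of these sums. Of 8 fibroblast and periosteum markers, 6 fell and 0 rose, with sums of 339 to 572 and 62.2 to 128 FPKM. Of 8 chondrocyte markers, 3 were tested and 2 fell, with sums of 80.0 to 126 and 8.88 to 10.9 FPKM. No marker of these lists was at 0 in all libraries. Of 8 marrow stroma markers, 4 rose and 0 fell, with sums of 402 to 533 and 567 to 1054.8 FPKM. Cxcl12, which did not pass (limma adjusted p = 0.282), gave 286 to 368 and 313 to 873 FPKM of these sums. The part of these cells in the values of Tbx2, Prrx1 and Pitx1 was not tested.

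Irx3, Irx5 and Tbx6 divided the Cbx2-/- libraries. Irx3 and Irx5 are Iroquois homeobox genes with roles in limb patterning and in fat cells, and they lie 556 kb apart on chromosome 8 (91798525 to 91802067, minus strand, and 92357625 to 92376286, plus strand). Irx3 was at 2.97, 5.40 and 4.62 FPKM in wild-type libraries and at 1.60, 1.58 and 4.47 FPKM in Cbx2-/- libraries. Irx5 was at 3.74, 3.72 and 2.57 FPKM in wild-type and 1.49, 0.967 and 2.97 FPKM in Cbx2-/- libraries. For both, Cbx2-/- replicates 1 and 2 were below every wild-type library and replicate 3 was within the wild-type range. The differences were -0.65 ± 0.32 for Irx3 and -0.68 ± 0.26 for Irx5 (log2, SE), with limma adjusted p = 0.198 and 0.116. Irx6, the nearest member of that cluster to Irx5 at 298 kb, was at 0.173 to 0.258 FPKM in wild-type and 0.228 to 0.265 FPKM in Cbx2-/- libraries. Of the other Iroquois cluster, on chromosome 13, Irx2 was at 0.112 ± 0.0640 and 0.149 ± 0.0440 FPKM (SD, n = 3 each), while Irx1 and Irx4 were listed at 0.

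Tbx6 (chromosome 7, 126781483 to 126785560, plus strand), a T-box gene of the presomitic mesoderm, spread most. It was at 3.80, 6.56 and 4.61 FPKM in wild-type libraries and at 1.78, 1.44 and 11.4 FPKM in Cbx2-/- libraries. Replicates 1 and 2 lay below every wild-type library and replicate 3 above every one, so the means of 4.99 and 4.86 FPKM describe no library of the Cbx2-/- group (limma adjusted p = 0.664). Without Cbx2-/- replicate 3, Tbx6 fell by 1.18, Irx3 by 1.01 and Irx5 by 0.96 on the log2 scale (adjusted p = 0.00358, 0.00754 and 0.00577), in a fit that called 14.3% of all genes lower. With replicates 1 and 2 left out instead, Tbx6 was 1.07 higher (adjusted p = 0.0116) and Irx3 differed by 0.06, in a fit that called 17% of all genes higher and takes the lone Cbx2-/- library to vary like the others.

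Skeletal muscle transcripts separated the same libraries, in the opposite direction. The 12 muscle markers summed to 24.8 to 38.1 FPKM in wild-type libraries, to 495 and 563 FPKM in Cbx2-/- replicates 1 and 2 and to 15.3 FPKM in replicate 3. Of them 7 were tested and 0 passed limma's adjusted p, and none was at 0 in all libraries. The factors that commit cells to muscle were near 0: Myog was listed at 0 in every library, and Myod1, Myf5, Myf6, Pax3 and Pax7 were each at most 0.146 FPKM. Mef2c, also a gene of B cells and vessels, fell by 0.67 on the log2 scale (limma adjusted p = 0.0143). Single genes of other lists divided the Cbx2-/- libraries in the direction of Irx3, Irx5 and Tbx6. Dmp1, an osteoblast marker, was at 38.2 to 51.2 FPKM in wild-type and 21.4, 11.4 and 74.6 FPKM in Cbx2-/- libraries. Pdgfra, a stroma marker, was at 5.04 to 7.78 FPKM and at 2.91, 3.24 and 7.25 FPKM. Others of these lists, such as Bglap and Lepr, did not divide them so. The part of muscle tissue or of these other cells in the values of Irx3, Irx5 and Tbx6 was not tested.

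**Figure D3:**
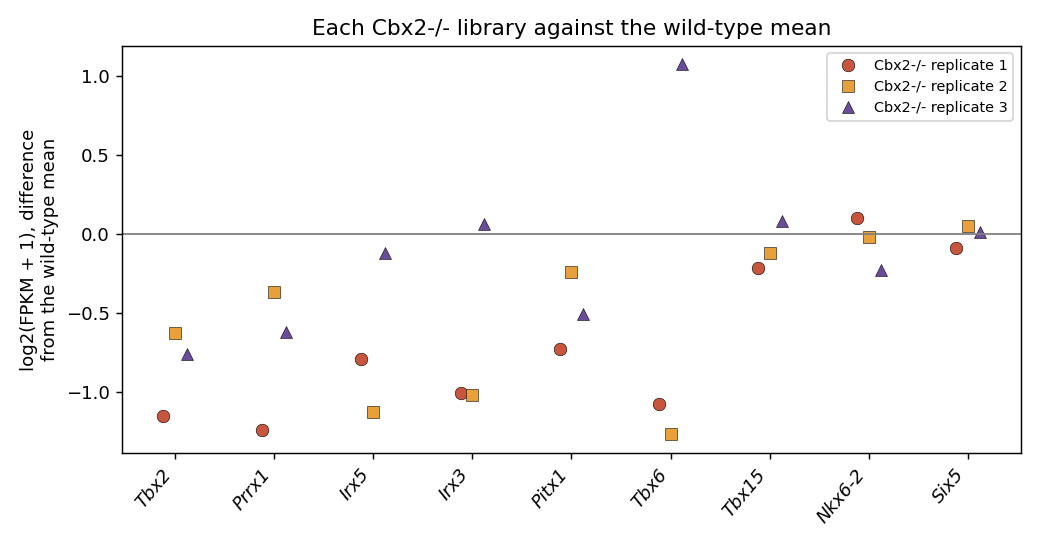
Difference of each Cbx2-/- library from the wild-type mean in log2(FPKM + 1) (vertical axis) for 9 of the 10 genes above the filter, ordered by their mean difference. The 3 libraries lie below 0 for Tbx2, Prrx1, Irx5 and Pitx1, and replicate 3 stands apart from the others for Tbx6 (1.07 against -1.08 and -1.27).

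Six5 and Tbx15 stayed close between genotypes. Six5, expressed in many tissues, was at 2.91 ± 0.217 and 2.88 ± 0.191 FPKM (SD, n = 3 each; interval -0.30 to 0.28). Tbx15, a T-box gene of skeletal precursors, was at 1.98 ± 0.315 and 1.81 ± 0.292 FPKM (interval -0.43 to 0.26). Six4, a sine oculis homeobox gene of muscle precursors, had its highest value in Cbx2-/- replicate 3, the library with the fewest muscle transcripts, at 0.431 FPKM against 0.0780 to 0.163 FPKM in the other libraries. Six2 was unsteady within genotypes, at 0, 0.586 and 0.179 FPKM in wild-type and 0.0636, 0.462 and 0.108 FPKM in Cbx2-/- libraries.

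Nkx6-2, a neural tube homeobox gene, is the only Nkx gene above the filter, and its reads are not certain to be its own. It was at 3.22, 2.86 and 3.40 FPKM in wild-type and 3.44, 3.09 and 2.53 FPKM in Cbx2-/- libraries (interval -0.38 to 0.27). Its end (chromosome 7, 139579376 to 139582797, minus strand) overlaps Inpp5a on the plus strand by 277 bases, and Inpp5a was at 11.0 to 13.2 FPKM. The libraries were stranded per the labels, but no source used here says whether the counting used strand. Of the 28 detectable rows, 13 overlap another gene of GENCODE vM21, in 12 cases one on the opposite strand, among them Irx3, Prrx1, Pitx1, Tbx15, Tbx18, Tbx3 and Alx4, so their values carry the same uncertainty.

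Low genes were read in a second limma fit on log2(FPKM + 0.1), with genes at 0.1 FPKM or more in at least 3 libraries. It took in 15066 genes and 26 of the 64 rows. It called 2 of the 26 lower (Tbx2 and Lhx1) and 0 higher, against 6.88% lower and 7.45% higher over all its genes. At an unadjusted p under 0.05, limma gave 1 of the 26 higher (Barx2) and 5 lower, against 16.5% and 14.0% of all genes of this fit. Of the 18 low rows the groups did not overlap in 3, all lower (Lhx1, Alx4 and Tbx21), where 12% of all genes of that level class were lower and 17.3% higher. With no filter, 24 of the 44 rows with any value were lower and 20 higher (54.5% lower, against 46.3% of all genes with a difference).

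**Figure D4:**
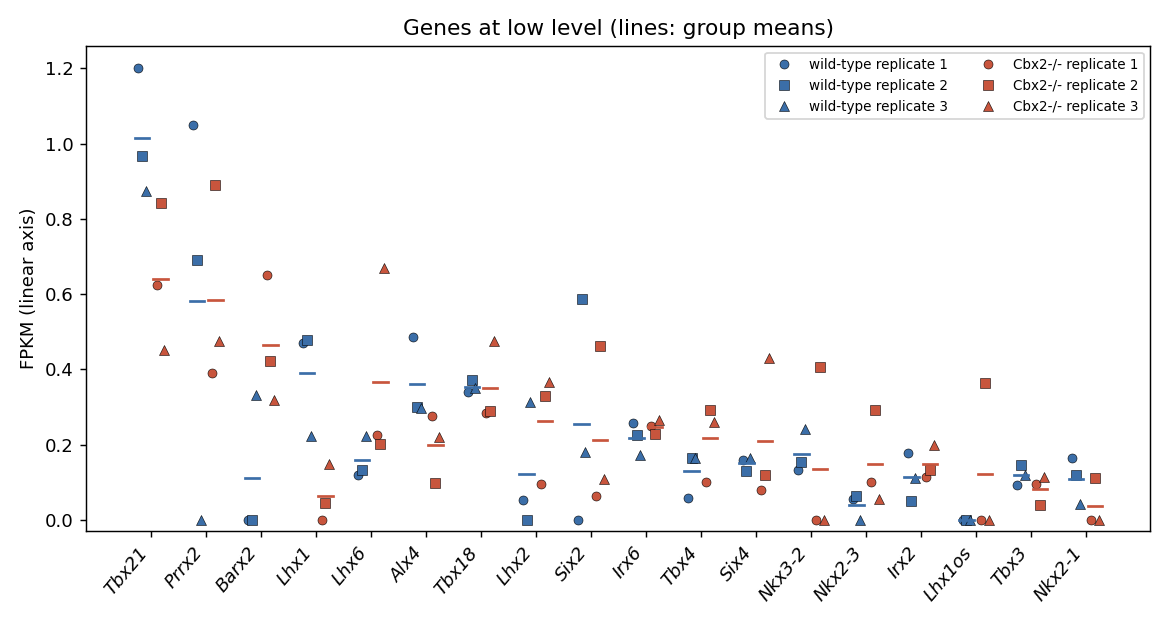
FPKM on a linear axis for the 18 low rows, ordered by the higher group mean, with a point per library and a line at each group mean. Lhx1, Alx4 and Tbx21 show separate groups, with Cbx2-/- values below, while Lhx1os and Nkx3-2 have their highest value in Cbx2-/- replicate 2.

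Lhx1 (chromosome 11, 84518284 to 84525535, minus strand), a LIM homeobox gene of kidney, head and motor neuron development, had the largest fall of the low genes in this fit. It was at 0.469, 0.477 and 0.222 FPKM in wild-type libraries and at 0, 0.0433 and 0.147 FPKM in Cbx2-/- libraries. Every Cbx2-/- value lay under every wild-type value. The difference was -1.63 ± 0.45 (log2, SE; limma adjusted p = 0.0490, range 0.0141 to 0.199 over 16 alternatives), and the call was lost in 12 of these alternatives, 5 of them among the 6 that leave out a library. In steps of its smallest value, adjusted for depth, the wild-type libraries stood at 10.7, 9.9 and 6.1 and the Cbx2-/- libraries at 0, 1.0 and 3.6. Of the 4 Lhx1 values above the smallest, 2 lay within 0.15 of a whole number, so these steps do not give a number of reads. Lhx1os, read from the opposite strand beside it, had a value in 1 library only, Cbx2-/- replicate 2.

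Lhx2 and Lhx6 had higher means in Cbx2-/- marrow, with overlapping groups, and neither passed the test. Lhx2, which acts in liver stellate cells and blood precursors of the embryo, was at 0.0534, 0 and 0.314 FPKM in wild-type and 0.0942, 0.328 and 0.367 FPKM in Cbx2-/- libraries. Lhx6, a gene of interneurons and tooth mesenchyme, was at 0.119, 0.133 and 0.222 FPKM in wild-type and 0.226, 0.201 and 0.670 FPKM in Cbx2-/- libraries (limma adjusted p = 0.302). With replicates 1 and 2 left out, a setting chosen after the data were seen, the lone value of 0.670 FPKM gave a difference of 1.60 (adjusted p = 0.0411), with the spread taken from the wild-type libraries and 12.7% of all genes called higher.

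Barx2, a Bar-type homeobox gene of muscle and cartilage, had the largest upward difference of the low genes in this fit. It was at 0, 0 and 0.331 FPKM in wild-type and at 0.651, 0.422 and 0.318 FPKM in Cbx2-/- libraries, so the groups overlapped at wild-type replicate 3. The difference was 1.75 ± 0.61 (log2, SE; limma adjusted p = 0.0957). It was 0.41 with a pseudocount of 1 and 2.33 with 0.05. Without wild-type replicate 3, the only wild-type library with a value, it was 2.45 (adjusted p = 0.0284, with 2.21% of all genes called higher), a size that the pseudocount sets because the other wild-type values are 0. In steps of its smallest value the largest was 2.3. Of its 3 values above the smallest, 0 lay within 0.15 of a whole number, so these steps do not give a number of reads.

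Tbx21, known as T-bet, directs type 1 T cells and NK cells, and was the highest of the low genes. It was at 1.20, 0.967 and 0.875 FPKM in wild-type and 0.623, 0.843 and 0.452 FPKM in Cbx2-/- libraries (difference -0.62 ± 0.28, limma adjusted p = 0.181). Of 10 T and NK cell markers, 8 were tested, 2 fell (Cd2 and Gzma) and 0 rose, with a median difference of -0.22. Cd3e and Cd3g, next by adjusted p, had means 2.04-fold and 1.68-fold higher in Cbx2-/- marrow without passing (limma adjusted p = 0.0696 and 0.101). Their sum was 39.0 to 56.7 FPKM in wild-type and 29.7 to 53.1 FPKM in Cbx2-/- libraries, and none was at 0 in all libraries. The part of these cells in the Tbx21 values was not tested. Of the T-box genes outside the name rule, Eomes, which shares these cells, was at 0.389 to 0.521 FPKM in wild-type and 0.156 to 0.464 FPKM in Cbx2-/- libraries. Mga was at 2.22 to 2.81 and 2.21 to 4.55 FPKM (limma adjusted p = 0.595), T was listed at 0, and Tbr1 had a value in 1 library.

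Alx4, an aristaless-like gene of skull and limb mesenchyme, was at 0.486, 0.299 and 0.297 FPKM in wild-type and 0.277, 0.0972 and 0.221 FPKM in Cbx2-/- libraries (limma adjusted p = 0.271). Tbx18, a gene of mural cells, was at 0.354 ± 0.0165 and 0.349 ± 0.109 FPKM (SD, n = 3 each). Nkx2-3, known in spleen and gut vessels, was at 0.0559, 0.0622 and 0 FPKM in wild-type and 0.1, 0.293 and 0.0553 FPKM in Cbx2-/- libraries. Of 8 endothelial markers, 5 rose and 0 fell, with sums of 107 to 117 and 206 to 232 FPKM, and their part in the Nkx2-3 values was not tested. Nkx3-2, a repressor in cartilage, was at 0.132, 0.154 and 0.241 FPKM in wild-type and at 0, 0.406 and 0 FPKM in Cbx2-/- libraries. Nkx2-1, of lung and thyroid, was at 0.163, 0.119 and 0.0428 FPKM in wild-type and at 0, 0.11 and 0 FPKM in Cbx2-/- libraries.

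Genes that work with these factors changed in both directions. Of 17 cofactor genes of the LIM homeobox and sine oculis homeobox factors, 11 were tested, 3 rose and 1 fell, with a median difference of 0.34 against 0.02 over all tested genes. Ldb2, a LIM domain binding protein, rose from 2.38 ± 0.474 to 4.71 ± 0.711 FPKM (SD, n = 3 each). Lmo1 rose 1.98-fold and Dach1, a partner of sine oculis homeobox factors, 2.1-fold. Lmo2, which joins LIM binding proteins to blood transcription factors, fell from 200 ± 22.4 to 116 ± 21.4 FPKM. Of 15 Groucho and TALE partner genes, 13 were tested, 2 rose (Pbx2, 1.43-fold, among them) and 0 fell, with a median of 0.01.

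Among 18 other limb and skeletal homeobox genes, 6 were tested, 1 rose and 3 fell, with a median of -0.70. Dlx3, a distal-less gene of bone, fell from 4.98 ± 1.56 to 1.28 ± 0.234 FPKM (SD, n = 3 each; limma adjusted p = 0.00601), and Dlx6 fell 2.11-fold. Hhex, of blood and endothelial precursors, rose 1.54-fold. Of 22 Polycomb subunit genes, all tested, 1 rose and 2 fell, where 8.80% of all tested genes rose and 8.31% fell. Cbx2 itself was at 2.90, 3.83 and 2.75 FPKM in wild-type and 2.11, 1.87 and 1.88 FPKM in Cbx2-/- libraries (limma adjusted p = 0.0558). With the allele not described, these values cannot be tied to a deleted or a remaining exon.

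The libraries had summed values of 599600.7 to 741191.5 FPKM. The sources used here give no read totals, and the commonest ratio of low values put the other libraries at 0.915 to 1.22 times the depth of wild-type replicate 1. The lists for other cell types also moved: of 10 adipocyte markers 9 were tested, 8 rose and 0 fell (sums of 230 to 457 and 2119.4 to 2742.4 FPKM), all 8 B cell precursor markers fell (731 to 875 and 53.4 to 99 FPKM), and of 8 neural and Schwann cell markers 5 were tested and 1 fell (Tubb3).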

How the data were processed

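RNA from tibial and femoral marrow of 3 wild-type and 3 Cbx2-/- mice was sequenced as stranded poly(A) libraries, 50-base single-end, per the labels' protocols. The authors deposited FPKM values per gene and library. Per the submitters' processing notes the tools included FastQC 0.11.5, TopHat2 2.1.0 and Cufflinks 2.2.1, and the build was mm10. Their settings and the annotation were not given in the sources used here. No gene of the group had a status other than OK.

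Tests used limma (version 3.58.1, R 4.3.3; moderated variances with a trend, two-sided) over all genes. The first fit took log2(FPKM + 1) of genes reaching 1 FPKM in 3 or more libraries, and the second log2(FPKM + 0.1) of genes reaching 0.1 FPKM in 3 or more. Differences on these scales understate changes of low genes. Benjamini-Hochberg adjustment ran over all genes of a fit. The scripts were tested on simulated data. Folds are ratios of mean FPKM. Members and gene lists were chosen with earlier results of these data known. Some genes counted here are not reported by name. Otherwise all genes of the low and tested classes were named, and of other lists at most 4 genes with the lowest adjusted p. Exceptions, named after their values were seen, were Mef2c, Cbx2, Inpp5a, Dmp1, Pdgfra, Cxcl12, the muscle regulators and the T-box genes outside the rule. The labels do not say more of how the 3 samples of a genotype were obtained, so p-values measure the spread between these samples. Positions are from GENCODE vM21 (GRCm38, as mm10), counted from 1. Alternatives were other pseudocounts, filters, scalings and limma settings, the replicate block, and each library left out. Figures were drawn with matplotlib 3.10.9.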

Additional observations from a re-analysis of the deposited data

How the results depend on the processing

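Tbx2 was lower in all 17 alternatives of the first fit (-0.96 to -0.69), and its call was lost in 4 of them. No gene of the group was called higher in the first fit in any alternative that kept at least 2 libraries of each genotype. With no filter, 0 were called lower, with 583 higher and 599 lower over all genes. Leaving out 1 library gave 0 to 4 lower genes of the group, and 367 to 2069 higher and 475 to 1719 lower over all genes. In the second fit, leaving out 1 library gave 0 or 1 higher and 0 to 5 lower, and 333 to 2102 higher and 420 to 1825 lower over all genes. There, the pseudocounts 0.05 and 1, a filter in 2 libraries and both scalings (TPM and median ratio) each left 1 lower gene in place of 2. The deviations of same-numbered libraries correlated at 0.19, -0.18 and -0.10, and those of differently numbered ones at -0.26 to 0.27. Deviations from a mean of 3 libraries are tied to one another, so these values cannot show whether the samples were paired. With the replicate block, 2 genes of the group were lower in the first fit (Prrx1 in addition, adjusted p = 0.0475) and 1 in the second, and over all genes 634 were higher and 734 lower in the first fit, and 638 and 748 in the second. Leaving out the 2 Cbx2-/- libraries with muscle transcripts, chosen after the data were seen, gave 1 higher and 1 lower gene of the group (Tbx2, -0.76) in the first fit and 2 higher and 1 lower in the second. Over all genes it gave 2047 higher and 2714 lower, and 1919 and 2541. The cause of these shifts was not tested. At a level of 0.5 FPKM, 12 of the rows were detectable in place of 28, and at 0.05 FPKM 33 of the 64 were.

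Directions turned mostly for genes near 0. With TPM scaling Six5 was at 0.01 in both fits and Six2 at 0.04, and with a pseudocount of 0.05 Six2 was at 0.11. With 1 library left out, the first fit ranged for Six5 from -0.05 to 0.03, Tbx15 from -0.17 to 0.00 and Nkx6-2 from -0.13 to 0.04, and the second for Six2 from -0.71 to 0.68, Six4 from -0.34 to 0.45, Six5 from -0.07 to 0.04, Prrx2 from -0.55 to 1.21, Tbx18 from -0.23 to 0.06 and Nkx6-2 from -0.17 to 0.05. Without both muscle-bearing libraries the first fit gave Irx3 0.06, Six5 0.01, Tbx15 0.08 and Tbx6 1.07, and the second gave 0.09, 0.02, 0.11 and 1.21, with Tbx18 at 0.34. The files give no read counts, so the depth behind the low values is unknown.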
